A study of Sus scrofa with 15 samples.

Results

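The 9 genes described here encode the enzymes that find and mend a damaged or modified DNA base. They are *TDG*, *MBD4*, *SMUG1*, *UNG*, *APEX1*, *XRCC1*, *LIG3*, *POLB* and *PARP1*, and each was taken by its gene symbol from a table of 28224 known pig genes, where every one of them was listed once. The values come from RNA-seq of 15 libraries in 5 groups of 3. PFF are cultured pig fetal fibroblasts at passages 2 to 5, which served as nuclear donors. SCNT4c and SCNT8c are untreated embryos made by somatic cell nuclear transfer and collected at the 4-cell and 8-cell stage. SCNT4c-KG are 4-cell embryos injected with *KDM4A* mRNA, which encodes a histone demethylase, at 1000 ng/μl 5 h after activation and kept in 0.1 μM GSK126, an inhibitor of the histone methyltransferase EZH2, for 48 h. SCNT4c-TDG are 4-cell embryos whose donor fibroblasts carried a doxycycline-inducible vector with a pig *TDG* cDNA and had been selected with 2 μg/ml puromycin for 7 d. Doxycycline was given to these embryos at 500 ng/ml from 40 to 72 h after activation. Every embryo library came from a pool of 30 embryos, and nothing in the labels says whether the pools of a group were made on separate days, so p-values measure the spread between these libraries, which may be partly technical. No library of embryos from the vector line without doxycycline, or of unmodified embryos with doxycycline, was analysed here, so the donor line, puromycin, doxycycline and *TDG* cannot be told apart in SCNT4c-TDG. Reads on *TDG* in that group can come from the vector or from the gene itself, and the table does not separate them.

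Base excision repair starts with a glycosylase that cuts one base from its sugar. TDG and MBD4 remove thymine or uracil paired with guanine, and TDG also removes the oxidized forms of methylated cytosine that TET enzymes make, which links repair to active DNA demethylation. UNG and SMUG1 remove uracil, UNG chiefly from newly copied DNA. APEX1 then cuts the DNA backbone at the empty sugar, POLB fills the gap, and LIG3, held by the scaffold protein XRCC1, seals the nick. PARP1 senses the open strand and attaches poly(ADP-ribose), which brings XRCC1 to it. In early embryos these enzymes come at first from mRNA and protein stored in the egg, and later from transcription of the embryo's own genome.

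On the pig genome Sscrofa11.1 the members lay on 8 chromosomes. *TDG* (5: 80473233 to 80492295) and *SMUG1* (5: 19375244 to 19412656) shared chromosome 5. *MBD4* was on chromosome 13 (68816677 to 68828559), *UNG* on 14 (41746498 to 41757841), *APEX1* on 7 (78451845 to 78454938), *XRCC1* on 6 (50403691 to 50425730), *LIG3* on 12 (40153105 to 40205077), *POLB* on 17 (11356130 to 11388122) and *PARP1* on 10 (14203157 to 14241164). Only *POLB* was annotated on the plus strand. For 4 of the 9 the annotated start of another gene lay within 1000 bases on the opposite strand, against 12.4% of 20674 protein-coding genes. *MBD4* started 151 bases from *IFT122*, *LIG3* 45 bases from *CCT6B* and *XRCC1* 821 bases from *PINLYP*, and the start of *APEX1* lay inside *OSGEP*. *GLT8D2* overlapped *TDG*. The strand setting of the counting is not given in the sources used here, so reads in overlapping stretches could belong to either gene.

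The bases just before the annotated starts of *TDG*, *MBD4* and *UNG* are shown because these members changed in SCNT4c-TDG against SCNT4c (values follow). For *TDG*, that group carried a doxycycline-inducible cDNA, whose reads need not come from the start shown here. Each line gives up to 250 bases of Sscrofa11.1 with the RefSeq gene start as its right end, on the gene's own strand, and *MBD4* is cut to the 150 bases that separate it from *IFT122*. Capitals mark the CCAAT box (CCAAT on either strand), the GC box (GGGCGG on either strand) and the E-box (CACGTG).
TDG (chr5:80492296-80492545, minus strand): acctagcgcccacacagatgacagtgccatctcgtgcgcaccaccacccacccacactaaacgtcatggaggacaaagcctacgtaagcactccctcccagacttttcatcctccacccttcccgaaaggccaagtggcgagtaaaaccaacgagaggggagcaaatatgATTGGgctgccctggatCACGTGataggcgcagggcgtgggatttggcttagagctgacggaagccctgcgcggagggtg
MBD4 (chr13:68828560-68828709, minus strand): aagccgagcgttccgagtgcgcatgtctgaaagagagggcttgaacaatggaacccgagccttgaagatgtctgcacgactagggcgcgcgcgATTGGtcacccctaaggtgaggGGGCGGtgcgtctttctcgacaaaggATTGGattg
UNG (chr14:41757842-41758091, minus strand): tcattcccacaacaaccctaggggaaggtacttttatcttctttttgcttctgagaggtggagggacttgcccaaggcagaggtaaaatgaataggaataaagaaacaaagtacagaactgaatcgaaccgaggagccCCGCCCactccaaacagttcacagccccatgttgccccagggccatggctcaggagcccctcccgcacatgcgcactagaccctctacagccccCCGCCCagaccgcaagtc
A CCAAT box, the letters bound by the factor NF-Y, was found before 3 of the 9 members (*TDG*, *MBD4* and *POLB*), and before 31.9% of 19531 protein-coding genes. A GC box, GGGCGG, the letters bound by SP1 and its relatives, stood in the 250 bases before 7 members, all but *TDG* and *APEX1*, against 45.9% of genes. *LIG3* held its GC box beyond the start of *CCT6B*. The E-box CACGTG occurred before *TDG* and no other member, against 6.39% of genes. Neither the E2F letters TTTGGCGC and TTTCCCGC (1.98% of genes) nor the ETS letters CCGGAAG (7.77%) were present before any of them on either strand. CG dinucleotides in 250 bases numbered 14 before *TDG*, 24 before *MBD4*, where that window runs past the printed stretch into *IFT122*, and 7 before *UNG*, against a median of 12 over all genes. These matches describe the letters in the window and nothing about binding.

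Values are the reads counted on a gene divided by a factor for each library, as the authors deposited them. Fold changes are differences of log2(value + 1) from limma, with Benjamini-Hochberg adjusted p over all features tested, and a gene counted as changed when that p was under 0.05 and the change was over 2-fold. Recovered reads ran from 12354649 to 22868038 per library. Mitochondrial features took 8.26 to 9.42% of the signal in SCNT4c-TDG, 1.76 to 2.47% in SCNT4c-KG, 0.909 to 1.39% in SCNT4c, 1.49 to 2.30% in SCNT8c and 0.810 to 0.819% in PFF. In SCNT4c-TDG against SCNT4c the median log2 change of all features was -0.26, and it moved to -0.08 with quantile normalization, 0.02 with the same total in each library and 0.13 when mitochondrial features were also left out. The summed level of 8 fibroblast markers was 3835976 to 4069206 in PFF, 4236 to 5448 in SCNT4c, 2476 to 3592 in SCNT4c-KG, 1612 to 2143 in SCNT4c-TDG and 2155 to 2435 in SCNT8c. Of 10 egg markers, *GDF9*, *BMP15* and *MOS* were listed at 0 in all libraries, and the summed level of the list was 74606 to 93563 in SCNT4c, 48139 to 73049 in SCNT4c-KG, 48249 to 49246 in SCNT4c-TDG, 39313 to 49394 in SCNT8c and 11.5 to 20.3 in PFF. Both sums were thus lower in every treated library than in every SCNT4c library, and their part in the differences from SCNT4c was not tested. Cumulus markers summed to 217 to 340 in SCNT4c-TDG, 348 to 670 in SCNT4c and 496 to 681 in SCNT4c-KG, with *PTX3* and *AMH* at 0 in each of them. *KDM4A*, whose mRNA was injected in SCNT4c-KG, was at 1429 to 1476 there and 134 to 313 in SCNT4c. Without injection it was at 555 to 918 in SCNT4c-TDG and 4932 to 5150 in PFF. Reads on *KDM4A* in SCNT4c-KG can come from the injected mRNA or from the gene itself. The table's column names for SCNT4c also appear in the descriptions of the SCNT4c-KG samples, and samples were assigned by their titles. The 3 SCNT4c libraries are called a, b and c, because their labels number them in conflicting ways. In bulk libraries, fewer cells and less RNA per cell cannot be told apart.

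**Figure D1:**
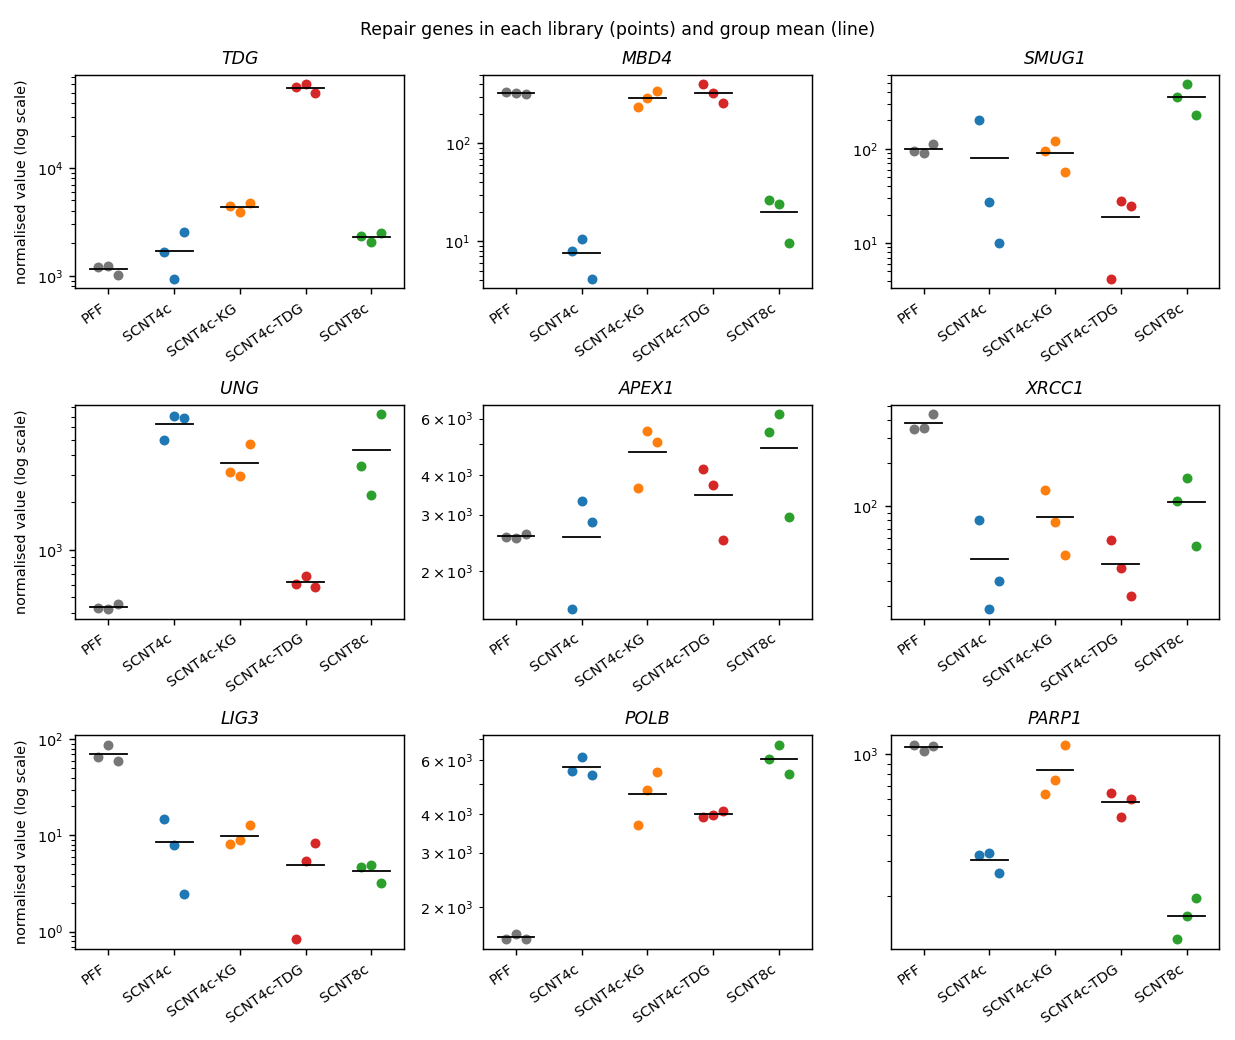
Normalized value of each of the 9 genes (vertical axis, log scale, with its own range in each panel) in the 3 libraries of each group (points), with the group mean as a line. TDG was at 49857 to 59944 in SCNT4c-TDG and at most 4738 elsewhere, MBD4 was at most 26.1 in SCNT4c and SCNT8c, and UNG was at most 686 in SCNT4c-TDG and PFF.

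*TDG*, the gene carried by the vector, stood at 56925, 59944 and 49857 in the SCNT4c-TDG libraries 1 to 3. SCNT4c libraries a, b and c held 1659, 939 and 2541. All 3 induced libraries were above all others, and the change was 5.13 ± 0.31 on the log2 scale (SE, n = 3 against 3; limma adjusted p = 5.66e-08). In SCNT4c-KG, where no *TDG* was supplied, the values were 4474, 3886 and 4738. These were also above every SCNT4c library, and the rise of 1.46 ± 0.31 passed the test (limma adjusted p = 0.00195). SCNT4c-TDG exceeded SCNT4c-KG by 3.67 ± 0.31 (limma adjusted p = 7.04e-06). SCNT8c held 2340, 2052 and 2506, within the range of SCNT4c, and PFF held 1194, 1237 and 1024.

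*MBD4*, the other thymine glycosylase, was nearly silent in untreated embryos. Its values were 7.89, 10.5 and 4.15 in SCNT4c a, b and c, which rest on 5 to 12 reads a library, and 26.1, 24.1 and 9.51 in SCNT8c. SCNT4c-TDG held 401, 328 and 257, from 336 to 480 reads. The groups were far apart, and *MBD4* rose by 5.33 ± 0.58 on the log2 scale (n = 3 against 3; limma adjusted p = 9.36e-06), from a mean of 7.51 ± 3.18 to 329 ± 72.2 (SD), a 43.8-fold difference of means. SCNT4c-KG held 234, 288 and 342, and the rise there was 5.14 ± 0.58 (limma adjusted p = 1.06e-05). The level was thus high in both treated groups, whose comparisons share the SCNT4c libraries. Directly compared, SCNT4c-TDG and SCNT4c-KG differed by 0.19 ± 0.58 (95% interval -1.05 to 1.43; limma adjusted p = 0.868). PFF, at 331, 330 and 321, lay within the range of the SCNT4c-TDG libraries. *IFT122*, a ciliary transport gene that starts 151 bases away on the other strand, was at 124 ± 31.4 in SCNT4c and 82.8 ± 12.2 in SCNT4c-TDG, a difference of -0.56 ± 0.72 that did not pass the test (limma adjusted p = 0.581). In SCNT4c-KG it was at 37.5 ± 21.1, below every SCNT4c library, a difference of -1.89 ± 0.72 (limma adjusted p = 0.051) that passed in 4 of 18 alternatives.

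*UNG* went the other way. SCNT4c a, b and c held 4964, 7020 and 6888, and the SCNT4c-TDG libraries held 608, 686 and 584. No library overlapped, and *UNG* fell by 3.31 on the log2 scale (SE 0.37, n = 3 against 3; limma adjusted p = 1.08e-05), a 10.1-fold difference of means. In SCNT4c-KG the values were 3104, 2943 and 4688, which lay below all of SCNT4c and above all of SCNT4c-TDG. The difference from SCNT4c, -0.83 ± 0.37, did not pass the test (limma adjusted p = 0.0872), while SCNT4c-TDG stood at -2.48 ± 0.37 relative to SCNT4c-KG and passed (limma adjusted p = 0.000462). SCNT8c spread widely, at 3410, 2231 and 7227. PFF held 430, 423 and 456, below every embryo library.

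*SMUG1* was low and uneven. SCNT4c a, b and c held 200, 27.1 and 9.96, so library a stood far above the other two. SCNT4c-TDG held 4.18, 27.6 and 24.5, within that range apart from library 1, and the difference of -1.35 ± 0.93 was not significant (95% interval -3.32 to 0.63; limma adjusted p = 0.277). This difference passed in 0 of 18 alternatives, at -2.27 to -0.17. Part of the reads at the *SMUG1* locus were on an unnamed assembled transcript, at 53.6, 28.8 and 47.3 in SCNT4c a, b and c. Gene and transcript together were at 254, 55.9 and 57.3 there and at 23.4, 42.2 and 34.4 in SCNT4c-TDG, without overlap. SCNT4c-KG held 94.7, 121 and 57.0, above all 3 SCNT4c-TDG libraries, with a difference between the treated groups of -2.49 ± 0.93 (limma adjusted p = 0.0804). That difference passed in a fit of the 2 groups alone (limma adjusted p = 0.021). The highest values were those of SCNT8c, at 358, 484 and 228, all above SCNT4c. The rise of 3.11 ± 0.93 missed the threshold (limma adjusted p = 0.0574), and passed without SCNT4c library a at 4.28 (limma adjusted p = 0.0386). Without that library SCNT4c-KG against SCNT4c also passed, at 2.32 (limma adjusted p = 0.0452), where all libraries gave 1.15 ± 0.93 (limma adjusted p = 0.341).

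Dividing each value by the kilobases of annotated exon allows levels of the 4 genes to be set beside each other within a library, and no scaling between libraries can move such a ratio. By this measure *UNG* made up 84.3% ± 6.39 (SD, n = 3) of the 4 glycosylase mRNAs in SCNT4c, *TDG* 15.1% ± 6.16 and *MBD4* 0.0623% ± 0.029. In SCNT4c-TDG *TDG* made up 97.8% ± 0.0069 and *UNG* 1.68% ± 0.079. In SCNT4c-KG the shares of *TDG* and *UNG* were 43.6% ± 4.35 and 53.3% ± 4.52, and in PFF 52.9% ± 3.21 and 30.7% ± 2.46. The ratio of *TDG* to *UNG* was 0.0879 to 0.242 in SCNT4c, 0.664 to 0.947 in SCNT4c-KG, 56.1 to 61.5 in SCNT4c-TDG, 0.228 to 0.604 in SCNT8c and 1.47 to 1.92 in PFF. SCNT4c-TDG, SCNT4c-KG and PFF did not overlap with SCNT4c, and each gave p = 0.1 in a two-sided exact permutation test of the log2 ratio, the smallest p that 3 against 3 libraries allow. SCNT8c overlapped with SCNT4c (exact permutation p = 0.2). The vector's cDNA reads are divided by the whole annotated exon length of *TDG*, so the per-kilobase level in SCNT4c-TDG is set by that choice of length. Because the vector supplied *TDG*, its high share and ratio in SCNT4c-TDG were given by the design, and the permutation p there shows no response. The same reads lower the other shares. *MBD4* made up 0.522% ± 0.090 in SCNT4c-TDG and 2.59% ± 0.385 in SCNT4c-KG, at mean values of 329 and 288.

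**Figure D2:**
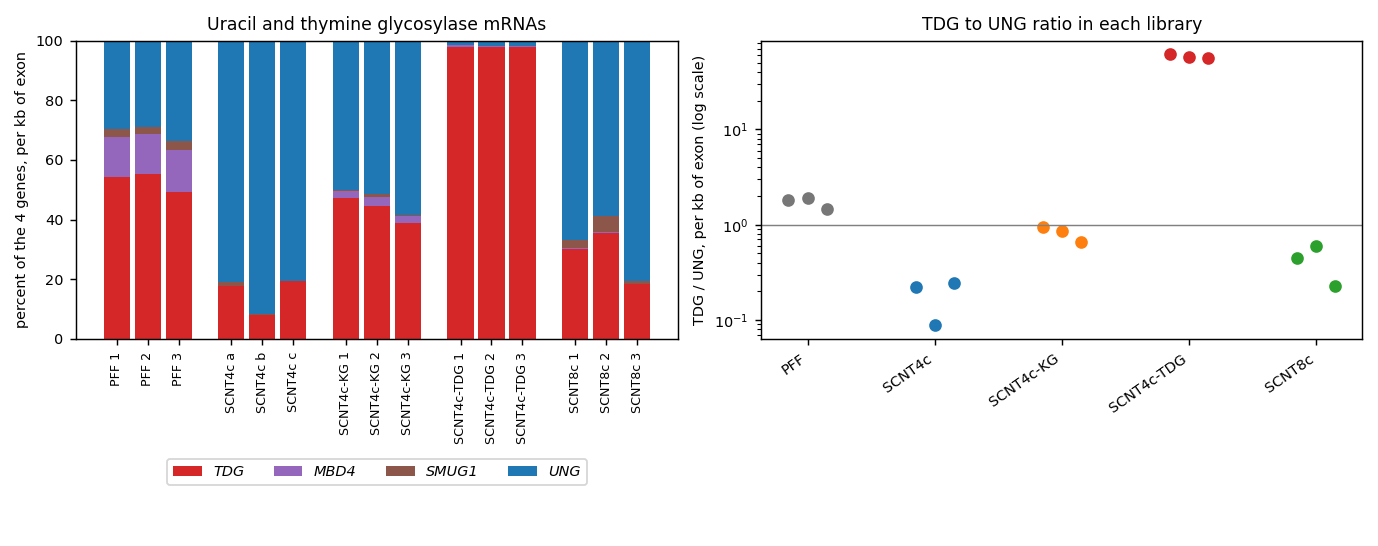
Left, share of TDG, MBD4, SMUG1 and UNG in the sum of the 4 (percent, values per kb of annotated exon), with 1 bar per library. Right, ratio of TDG to UNG per kb of exon in each library (points, log scale, line at 1), which was at most 0.242 in SCNT4c and at least 56.1 in SCNT4c-TDG.

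Of the members that act after the glycosylases, the 4 that could be tested (*APEX1*, *POLB*, *XRCC1* and *PARP1*) did not pass in SCNT4c-TDG against SCNT4c. In that comparison 33.3% of 18942 features changed, so most features did not pass either. *APEX1*, the endonuclease, was at 1518, 3308 and 2841 in SCNT4c a, b and c and at 4166, 3704 and 2488 in SCNT4c-TDG. The ranges overlapped, with a difference of 0.48 ± 0.36 (95% interval -0.29 to 1.24; limma adjusted p = 0.323). SCNT4c-KG held 3630, 5497 and 5056, all above SCNT4c, and its difference of 0.94 ± 0.36 missed the threshold (limma adjusted p = 0.0508). *APEX1* passed there in 3 of 18 alternatives. These were DESeq2, the fit without SCNT4c library b, at 1.16 (limma adjusted p = 0.0421), and that without SCNT4c-KG replicate 1, at 1.12 (limma adjusted p = 0.0491).

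*POLB*, the gap-filling polymerase, was among the most even of the members. SCNT4c a, b and c held 5516, 6141 and 5357, and SCNT4c-TDG held 3924, 3977 and 4086. The groups did not overlap, yet the difference of -0.50 ± 0.23 was under 2-fold and did not pass (limma adjusted p = 0.11). SCNT4c-KG, at 3680, 4782 and 5465, overlapped with both, and SCNT8c held 6024, 6714 and 5391. PFF was at 1573, 1637 and 1579, below all embryos.

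*XRCC1*, the scaffold, was at 80.5, 19.2 and 29.9 in SCNT4c a, b and c. It was at 58.5, 36.8 and 23.7 in SCNT4c-TDG, with a difference of 0.04 ± 0.70 and a 95% interval of -1.44 to 1.53 (limma adjusted p = 0.967). With 22 to 102 reads a library in SCNT4c, a change of 2-fold in either direction lies inside that interval. The embryo groups overlapped with one another, and PFF, at 349, 354 and 439, was above all embryos. *LIG3*, the ligase, was lower still, at 14.99, 7.86 and 2.49 in SCNT4c and 0.836, 5.37 and 8.42 in SCNT4c-TDG, from 1 to 19 reads a library. Its mean fell under the minimum of 10 for the embryo fit, so it was not tested there. In the 2 alternatives that tested it in SCNT4c-TDG against SCNT4c, *LIG3* was at -0.77 to -0.72 and did not pass. Unnamed assembled transcripts at its locus averaged 20.9 in SCNT4c and 12.1 in SCNT4c-TDG. They can belong to *LIG3* or to *CCT6B*, so the entry of *LIG3* may understate its level. PFF held 64.7, 87.9 and 59.6.

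*PARP1*, the break sensor, was the member nearest the threshold in SCNT4c-TDG against SCNT4c among those that did not pass. SCNT4c a, b and c held 319, 329 and 261, and the SCNT4c-TDG libraries held 646, 492 and 603. Each SCNT4c-TDG library was above each SCNT4c library, with a difference of 0.93 ± 0.35 (95% interval 0.19 to 1.68; limma adjusted p = 0.0517). It passed in 5 of 18 alternatives, those that rescale the libraries: for example at 1.17 with quantile normalization (limma adjusted p = 0.0158) and at 1.21 with edgeR's quasi-likelihood test on the recovered reads (adjusted p = 0.0216). In SCNT4c-KG *PARP1* was at 639, 745 and 1116 and rose by 1.42 ± 0.35 (limma adjusted p = 0.00548). The treated groups overlapped with each other, at a difference of -0.49 ± 0.35 (limma adjusted p = 0.378). In SCNT8c the values of 123, 160 and 197 were below those of all SCNT4c libraries, a difference of -0.94 ± 0.35 that did not pass (limma adjusted p = 0.102).

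In SCNT4c-TDG against SCNT4c, 2 of the 8 members tested were higher (*TDG* and *MBD4*) and 1 was lower (*UNG*). The vector supplied *TDG* in that group, so its rise was set by the design, and only *MBD4* and *UNG* changed beside it. Of 18942 features tested, 33.3% changed, 15.7% higher and 17.6% lower. The share of members that changed, *TDG* included, was near that of all features. The median log2 change was 0.26 over the members, *TDG* included, and -0.26 over all features. In SCNT4c-KG against SCNT4c, 3 members were higher (*TDG*, *MBD4* and *PARP1*) and 0 lower, where 37.2% of features changed, 17.6% higher and 19.6% lower, and the medians were 1.11 and -0.30. Between SCNT4c-TDG and SCNT4c-KG 1 member was higher (*TDG*, which the vector supplied) and 1 lower (*UNG*). There 16.2% of features changed, 7.07% higher and 9.13% lower, and the medians were -0.48 and -0.02.

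In SCNT8c against SCNT4c 0 of 8 members passed in limma, against 5.79% of features (2.62% higher, 3.16% lower), with 5480 features and 4 members at an unadjusted p under 0.05. Neither did a member pass in edgeR, where 669 features were higher and 173 lower. In DESeq2 3 members passed (*MBD4*, *SMUG1* and *APEX1*), where 1962 features were higher and 771 lower. SCNT8c replicate 3 stood nearer to SCNT4c than the other two in *UNG*, *MBD4* and *APEX1*. Without it 5 members passed: *SMUG1* at 3.40, *MBD4* at 1.69 and *APEX1* at 1.26 were higher, and *UNG* at -1.17 and *PARP1* at -1.10 were lower. The share of all features then rose as well, to 32.3% (12.4% higher, 19.9% lower).

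In PFF against SCNT4c 4 of 9 members were higher and 2 lower, where 78.2% of 19287 features changed (38.5% higher, 39.7% lower). *MBD4* was higher in fibroblasts by 5.35 ± 0.35 (limma adjusted p = 2.2e-05), *XRCC1* by 3.36 ± 0.53 (limma adjusted p = 0.0012), *LIG3* by 3.16 ± 0.59 (limma adjusted p = 0.00272) and *PARP1* by 1.85 ± 0.16 (limma adjusted p = 6.91e-05). *UNG* was lower, at -3.83 ± 0.17 (limma adjusted p = 4.32e-06), and so was *POLB*, at -1.83 ± 0.10 (limma adjusted p = 9.4e-06). *APEX1* was at 2564 ± 45.1 and 2556 ± 928, a difference of 0.08 (95% interval -0.64 to 0.80) that turned to -0.50 with quantile normalization. *SMUG1* was at 98.4 ± 12.1 and 79.1 ± 105, and counted as higher in fibroblasts without SCNT4c library a, at 2.5 (limma adjusted p = 0.00564). *TDG* was at -0.46 ± 0.36 (limma adjusted p = 0.269), and counted as lower in fibroblasts in the 5 alternatives that rescale the libraries, at -1.09 to -1.37.

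**Figure D3:**
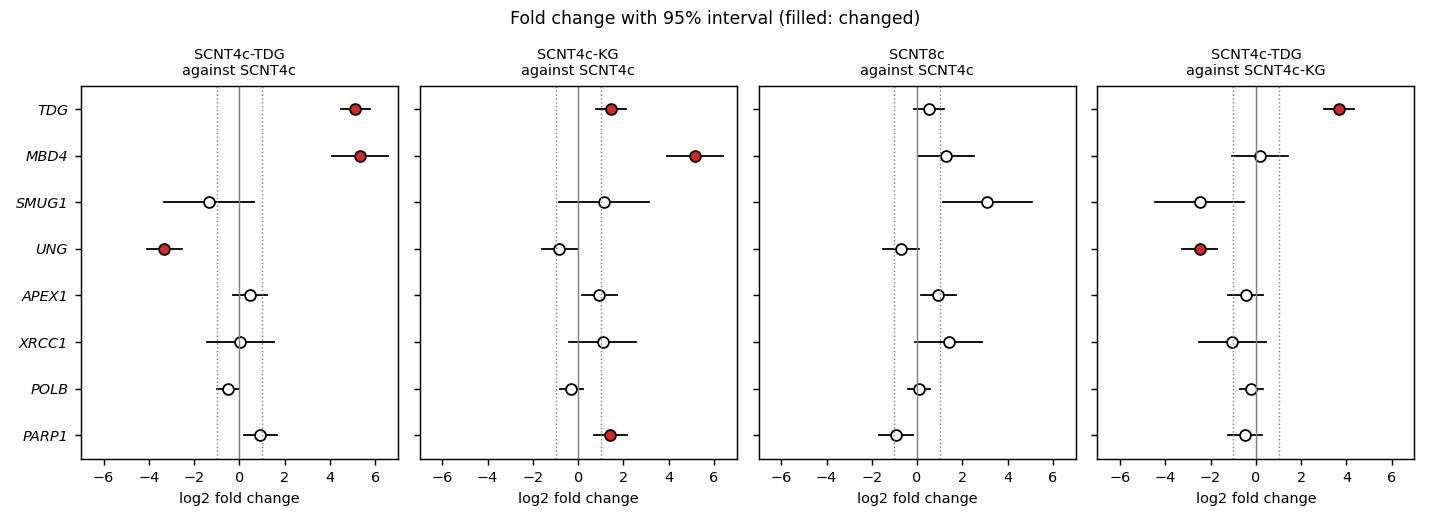
Log2 fold change (point) with 95% interval (line) of the 8 members tested in embryos, 1 panel per comparison, with dotted lines at 2-fold and filled points for genes that changed. MBD4 was at 5.33 and 5.14 in the panels of SCNT4c-TDG and SCNT4c-KG against SCNT4c, and UNG at -3.31 and -0.83.

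In order of mean level, *TDG* ran SCNT4c-TDG, SCNT4c-KG, SCNT8c, SCNT4c, PFF, and the last 3 overlapped with their neighbours. *MBD4* ran SCNT4c-TDG, PFF, SCNT4c-KG, SCNT8c, SCNT4c, with one gap free of overlap, between SCNT4c-KG and SCNT8c. *UNG* ran SCNT4c, SCNT8c, SCNT4c-KG, SCNT4c-TDG, PFF, with the last 3 apart from each other. *PARP1* ran PFF, SCNT4c-KG, SCNT4c-TDG, SCNT4c, SCNT8c, and was free of overlap between SCNT4c-TDG and SCNT4c and between SCNT4c and SCNT8c. *SMUG1* ran SCNT8c, PFF, SCNT4c-KG, SCNT4c, SCNT4c-TDG, and only SCNT8c stood free of overlap with its neighbour. *APEX1* overlapped between all neighbours. For *XRCC1* and *LIG3* the gap lay between PFF, at the top, and the embryos, and for *POLB* between the embryos and PFF, at the bottom.

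A list of 33 further base excision repair genes held 23 that could be tested in embryos. In SCNT4c-TDG against SCNT4c 4 of them were higher and 7 lower, where 15.7% of all features were higher and 17.6% lower, with a median log2 change of 0.16 against -0.26 over all features. The balance depended on the scaling, with 4 higher and 5 lower in edgeR, 5 and 5 with the same total, 6 and 5 with quantile normalization, 7 and 5 in DESeq2, and 8 and 4 with the same total when mitochondrial features were also left out. In SCNT4c-KG against SCNT4c 7 were higher and 3 lower, where 17.6% of features were higher and 19.6% lower, and the medians were 0.76 and -0.30. Between the treated groups 1 was higher and 2 lower in SCNT4c-TDG, where 7.07% of features were higher and 9.13% lower, against 1 and 2 with quantile normalization, 1 and 2 in edgeR, 2 and 3 in DESeq2, 3 and 1 with the same total, and 4 and 1 when mitochondrial features were also left out. In SCNT8c against SCNT4c 0 passed in limma, where 7 had an unadjusted p under 0.05, 0 in edgeR and 3 in DESeq2. Without SCNT8c replicate 3, 6 of the list passed, 3 higher and 3 lower, where 32.3% of all features did.

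Among the other glycosylases, *NTHL1*, which removes oxidized pyrimidines, was at 137 ± 14.0 in SCNT4c-TDG and 24.2 ± 9.09 in SCNT4c. It rose by 2.52 ± 0.64 (limma adjusted p = 0.00687), and by 2.63 ± 0.64 in SCNT4c-KG (limma adjusted p = 0.00483). The NEIL glycosylases, which also act on oxidized bases, were lower. *NEIL1* was at 14.4 ± 5.83 in SCNT4c-TDG and 114 ± 55.2 in SCNT4c, a change of -2.86 ± 0.70 (limma adjusted p = 0.0059), and *NEIL2* was at 2.88 ± 0.32 and 52.6 ± 28.4, a change of -3.59 ± 1.14 (limma adjusted p = 0.0248). *NEIL3*, named after its values were seen as the fourth glycosylase that passed, fell from 7230 ± 2149.7 to 1716 ± 231, a change of -2.03 ± 0.43 (limma adjusted p = 0.00223). In SCNT4c-KG *NEIL3* changed by -2.90 ± 0.43 (limma adjusted p = 0.000131) and *NEIL1* by -2.06 ± 0.70 (limma adjusted p = 0.0319), while *NEIL2* was at -2.53 ± 1.14 (limma adjusted p = 0.0928).

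In the long-patch branch, which replaces a stretch of bases in place of 1, *FEN1*, the flap-cutting nuclease, was at 2.88 ± 0.83 in SCNT4c-TDG, from 3 to 5 reads a library. SCNT4c held 22.9 ± 7.64 and SCNT4c-KG 95.2 ± 54.5. *FEN1* changed by -2.59 ± 0.71 in SCNT4c-TDG (limma adjusted p = 0.0114) and rose by 1.90 ± 0.71 in SCNT4c-KG (limma adjusted p = 0.0467), and the treated groups differed by -4.49 ± 0.71 (limma adjusted p = 0.000762). The rise in SCNT4c-KG did not pass in any fit that left out 1 SCNT4c library or SCNT4c-KG replicate 1 or 2, with changes of 1.47 to 2.06. Of the polymerase delta subunits, *POLD2* changed by -1.54 ± 0.54 in SCNT4c-TDG (limma adjusted p = 0.0395) and *POLD3* by -1.14 ± 0.35 (limma adjusted p = 0.021). Neither *POLD2*, at -1.28 to -1.13, nor *POLD3*, at -0.87 to -0.75, passed in the 5 alternatives that rescale the libraries. *POLD2* and *POLD3*, with *NEIL2* and *GADD45A*, lost the call without SCNT4c library a, SCNT4c library b or SCNT4c-TDG replicate 2, each of which left 4 genes higher and 3 lower. *POLD2* also lost it without SCNT4c library c, *POLD3* and *NEIL2* without SCNT4c-TDG replicate 1, and *GADD45A*, *NEIL2* and *POLD2* without SCNT4c-TDG replicate 3.

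*PARG*, which removes poly(ADP-ribose) again, was at 945 ± 124 in SCNT4c-TDG and 349 ± 59.5 in SCNT4c, a rise of 1.44 ± 0.33 (limma adjusted p = 0.00339), and at 594 ± 126 in SCNT4c-KG, a difference of 0.76 ± 0.33 (limma adjusted p = 0.078). *DUT*, the dUTPase that keeps uracil out of DNA, stood at 24.1 to 73.4 in SCNT4c, 1038 to 1353 in SCNT4c-TDG and 1093 to 1730 in SCNT4c-KG. It rose by 4.57 ± 0.44 (limma adjusted p = 3e-06) and 4.78 ± 0.44 (limma adjusted p = 1.36e-06), against the same SCNT4c libraries. SCNT8c held 41.2 to 60.7, within the range of SCNT4c, and PFF 1528 to 1685.

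Upstream of *TDG*, *GADD45A*, a stress protein linked to demethylation, fell from 982 ± 728 to 214 ± 63.8 in SCNT4c-TDG, a change of -1.89 ± 0.58 (limma adjusted p = 0.02). *TET1*, *TET2* and *TET3* were listed at 0 in all 15 libraries, as were *MPG*, *APTX* and *LIG1*. Unnamed assembled transcripts overlapping those genes did hold reads. At the *TET3* locus they summed to 62.3 to 86.8 in SCNT4c, 9.18 to 13.8 in SCNT4c-TDG, 7.12 to 22.9 in SCNT4c-KG and 33.4 to 57.3 in PFF, and at *TET1* to 4.73 to 31.6, 33.8 to 151, 10.2 to 38.5 and 653 to 743. A listed 0 for these genes is therefore no measure of their mRNA, and where genes overlap such a transcript can belong to a neighbour. The genes that changed in SCNT4c-KG and not among those above, named after their values were seen, were *OGG1* at 2.60, *PARP2* at 1.82, *CHD1L* at 4.85 and *GADD45B* at 1.75, all higher, and *APLF* at -1.29. *CHD1L* rested on 0 to 4 reads in SCNT4c, and summed with the assembled transcripts at its locus it was at 0.41 (limma adjusted p = 0.616) and did not pass. Without SCNT4c-KG replicate 2, *FEN1*, *GADD45B*, *APLF* and *NEIL1* no longer passed, which left 6 genes of the list. *NEIL1* also lost its call in SCNT4c-KG without SCNT4c library a, SCNT4c library b or SCNT4c-KG replicate 3, and *GADD45B* without SCNT4c library b or SCNT4c-KG replicate 1. Between the treated groups, *APLF* was higher at 1.27 and *GADD45B* lower at -1.75 in SCNT4c-TDG, and each lost its call without SCNT4c-KG replicate 2 or any 1 SCNT4c-TDG library, *GADD45B* also without SCNT4c-KG replicate 1.

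**Figure D4:**
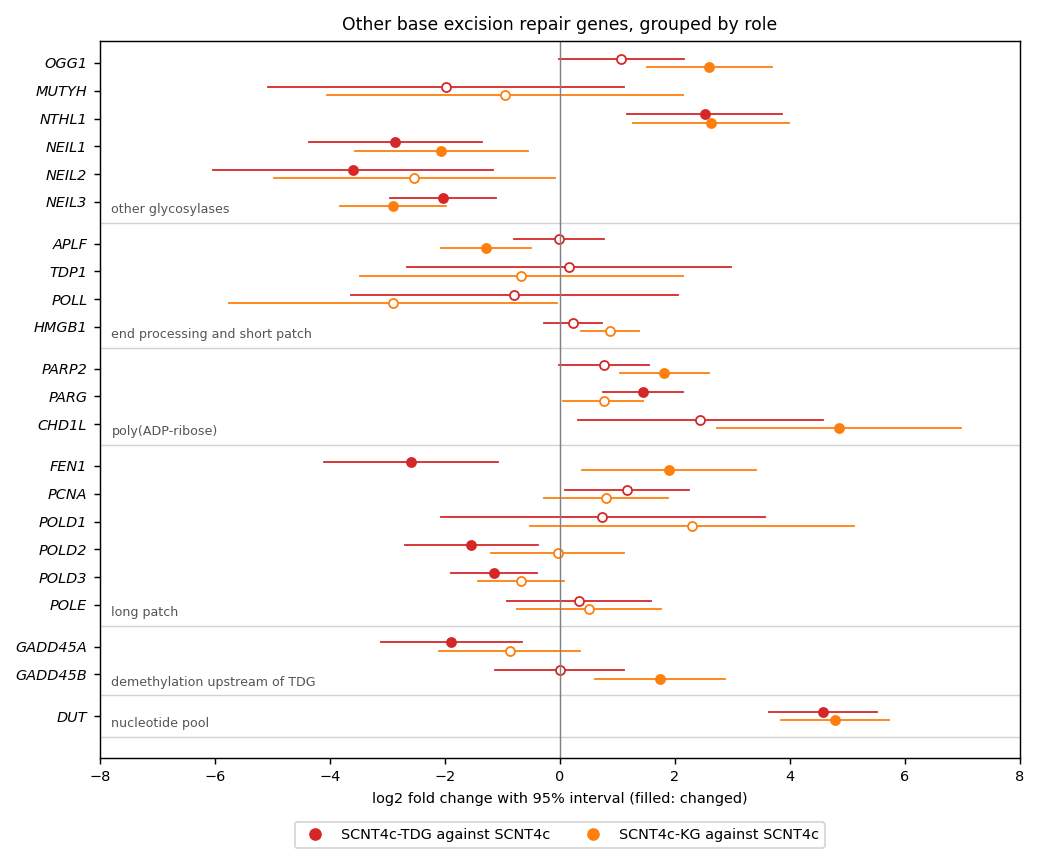
Log2 fold change (point) with 95% interval (line) of 22 of the 23 other base excision repair genes tested, grouped by role, in SCNT4c-TDG (red) and SCNT4c-KG (orange) against SCNT4c, with filled points for genes that changed. DUT was at 4.57 and 4.78, and FEN1 at -2.59 and 1.90.

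Among the genes taken as neighbours of *TDG*, *NFYB*, a subunit of the CCAAT-binding factor NF-Y, was at 1291 ± 149 in SCNT4c, 3632 ± 226 in SCNT4c-KG and 8338 ± 834 in SCNT4c-TDG. It rose by 1.5 ± 0.24 (limma adjusted p = 0.000284) and 2.69 ± 0.24 (limma adjusted p = 1.75e-06). *HCFC2* was at 586 ± 83.5, 76.4 ± 29.1 and 264 ± 76.8 in the same order, with changes of -2.98 ± 0.41 (limma adjusted p = 6.61e-05) and -1.18 ± 0.41 (limma adjusted p = 0.037). *GLT8D2*, which overlaps *TDG*, was at 3250 ± 389, 552 ± 258 and 747 ± 50.4, with changes of -2.68 ± 0.46 (limma adjusted p = 0.000384) and -2.11 ± 0.46 (limma adjusted p = 0.00243). The call of *HCFC2* in SCNT4c-TDG held in 7 of 18 alternatives, and the other calls of this paragraph held in 18 of 18.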

How the data were processed

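RNA was measured by sequencing in 3 libraries of each of 5 groups. The authors used Trimmomatic 0.39 for read trimming, STAR 2.5.3a for alignment to Sscrofa11.1 (unique hits alone were kept), StringTie 2.1.2 for transcript assembly and HTSeq for counting; a strand setting is not given in the sources used here. They deposited a normalized signal: the count of a feature over its library's scaling factor. In every library 100% of values were whole multiples of 1 read's value (tolerance 0.01), which gave back 12354649 to 22868038 reads. After 241 repeated entries were removed, 43294 features remained, of which 28224 were known genes.

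With limma 3.58.1 (R 4.3.3, intensity trend), log2(value + 1) was tested for every feature averaging 10 or more. The 12 embryo libraries were fitted together, and PFF and SCNT4c in a fit of 6 libraries. This scale understates the change of low genes. Alternatives were quantile normalization, scaling of libraries to an equal total, pseudocounts of 0.1 and 10, a filter at a mean of 50 or only at 0, edgeR 4.0.16 and DESeq2 1.42.0 on recovered reads, a fit restricted to the pair of groups compared (for PFF, widened to all 15 libraries), no fold change limit, each gene summed with assembled transcripts at its locus, and each library left out in turn. An equal total without mitochondrial features was added after the data were seen. The members and lists were chosen with earlier results of these data known. All 9 members are named in every comparison, as are up to 3 genes per role of the wider list with the greatest change among those that passed in SCNT4c-TDG against SCNT4c, the TET genes, the neighbours of *TDG*, *KDM4A* and *EZH2*, and, for each member, the 3 known genes of mean 100 or more with the nearest pattern of group means. Exceptions are marked. *HPF1* and *HAS2*, which the lists hold, are not listed under those symbols. Replicate numbers shared by SCNT4c-TDG and SCNT4c-KG were checked for pairing. Starts and promoter sequences were read from the RefSeq annotation of Sscrofa11.1, where 99.9% of known genes had a matching symbol. The figures were drawn with matplotlib 3.10.9. Single items that the rules above would name are not reported here, though the counts of the lists include them.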

Additional observations from a re-analysis of the deposited data

How the results depend on the processing

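Of 745 recomputed fold changes of members, 700 kept their direction and their side of the threshold, 29 newly passed it, 1 no longer passed (*PARP1* in PFF against SCNT4c with quantile normalization, at 0.79) and 15 changed sign. *TDG*, *MBD4* and *UNG* in SCNT4c-TDG against SCNT4c passed in 18 of 18 alternatives, at 4.75 to 5.64, 4.27 to 5.80 and -3.48 to -2.93, as did *TDG*, *MBD4* and *PARP1* in SCNT4c-KG. The sign changes were all in differences that did not pass in the reported fit. *XRCC1* in SCNT4c-TDG against SCNT4c went to -0.87 when summed with its locus and ran from -0.39 to 0.61 with 1 library left out. *POLB* between the treated groups was at 0.13, 0.17 and 0.27 with quantile normalization, the same total, and the same total without mitochondrial features. In PFF against SCNT4c *APEX1* was at -0.50, -0.54 and -0.55 under those same 3 settings, -0.75 with edgeR, -0.79 with DESeq2 and -0.26 to 0.30 with 1 library left out, and *SMUG1* was at -0.38 with edgeR and -0.42 with DESeq2. In SCNT8c against SCNT4c the members that passed numbered 1 with a pseudocount of 10, 1 with a minimum mean of 50, 1 with genes summed over their locus, 3 with DESeq2, and 0 to 5 with 1 library left out. For the wider list that comparison gave 3 with DESeq2 and 0 to 6 with 1 library left out. The wider list gave 7 to 11 in SCNT4c-TDG and 6 to 11 in SCNT4c-KG with 1 library left out. Between the treated groups it gave 5 with a pseudocount of 10, 5 with DESeq2, 9 in a fit of the 2 groups alone, and 1 to 4 with 1 library left out. The cause of these shifts was not tested. A replicate block could be fitted for the treated groups, whose same-numbered libraries correlated at 0.00298, 0.00776 and 0.0326 and were not treated as pairs: fitted on the 2 groups, it called 9 of the wider list, 2 higher and 7 lower, and *SMUG1*, at -2.49 (limma adjusted p = 0.0177), as the fit of the 2 groups without the block did in number and for *SMUG1* (limma adjusted p = 0.021). No paired analysis was possible for the other comparisons because the labels number the SCNT4c libraries in conflicting ways. *LIG3*, *XRCC1*, *SMUG1* and *FEN1* had 3 to 254 reads in the SCNT4c libraries, and *MBD4* had 5 to 12, so the sizes of their changes are imprecise. *SMUG1* alone ran from 12 to 254 reads there, and the cause of that spread was not tested.

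Over all features, SCNT8c against SCNT4c gave 497 higher and 599 lower, against 659 and 1003 with a pseudocount of 10, 265 and 336 with all features above 0, 729 and 551 with quantile normalization, 669 and 173 with edgeR, 1962 and 771 with DESeq2, 0 in a limma fit of the 2 groups alone (3582 at an unadjusted p under 0.05), and from 16 and 15 without SCNT4c library b to 2363 and 3770 without SCNT8c replicate 3. Between the treated groups 1340 were higher and 1730 lower, against 2051 and 1145 with the same total, 2324 and 1015 with the same total and mitochondrial features left out, 2065 and 2924 in a fit of the 2 groups, 2041 and 2764 with the replicate block, and 693 and 1101 without SCNT4c-TDG replicate 3. In SCNT4c-TDG against SCNT4c 2969 and 3331 became 3512 and 2733 with the same total, and 3779 and 2492 with the same total and mitochondrial features left out.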

Other observations

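Known genes were ranked by how near their pattern of group means came to that of each member, as the root mean square difference of centred log2 means, over 6950 genes with a mean of at least 100 (6951 for *LIG3*). This is a description over 5 groups and says nothing of shared function or control. For *MBD4*, whose own means span 5.35 log2 units, the nearest were *TMEM251* (0.19), *TMED5* (0.24) and *MRPL30* (0.24). *TMED5*, for example, was at a mean of 44.3 in SCNT4c, 90.4 in SCNT8c, 1478 in SCNT4c-KG, 1792 in SCNT4c-TDG and 1125 in PFF. For *UNG*, which spans 3.83, near genes were *CCDC34* (0.26) and *CNTNAP2* (0.33). For *TDG*, compared over 4 groups without SCNT4c-TDG, they were *EMC8* (0.04), *GTF2A1* (0.05) and *RPAIN* (0.07). *PARP1* was nearest to *TBC1D8* (0.20), *POLR3E* (0.25) and *SEC61A2* (0.26), and *SMUG1* to *NDUFV1* (0.38), *ARL2* (0.51) and *RWDD3* (0.51). *APEX1* was nearest to *CDADC1* (0.06), *DDX28* (0.11) and *TMEM59* (0.12), *XRCC1* to *TMED2* (0.12), *APRT* (0.17) and *ZFYVE27* (0.19), *LIG3* to *INTU* (0.06), *FAM168A* (0.09) and *TNFSF10* (0.14), and *POLB* to *RAB8B* (0.04), *TMEM39A* (0.14) and *TTC9C* (0.16).

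*EZH2*, the target of GSK126, was at 333 ± 16.5 (SD, n = 3) in SCNT4c, 1062 ± 168 in SCNT4c-KG and 1124 ± 122 in SCNT4c-TDG. Against SCNT4c it rose by 1.66 ± 0.38 in SCNT4c-KG (limma adjusted p = 0.00319) and by 1.75 ± 0.38 in SCNT4c-TDG (limma adjusted p = 0.00247). *KDM4A* rose in SCNT4c-TDG too, from 194 ± 103 to 775 ± 194, by 2.08 ± 0.48 (limma adjusted p = 0.00375).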
